A study of Mus musculus with 8 samples.

Results

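The regulatory factor X (Rfx) genes Rfx1 to Rfx7, with Rfxap and Rfxank, which encode the partner subunits of Rfx5, were followed in the small intestine of mouse embryos. All probes carrying 1 of these 9 gene names, out of 36161 names in the array files, were taken, which gave 14 of 55681 distinct probes. Of the 14, 13 were tested, since they were well above background on at least 4 of the 8 arrays, and 1 of the 2 Rfx4 probes was not well above background on any array. No other probe had a transcript accession of these genes.

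Rfx proteins share a winged-helix DNA-binding domain and recognise a promoter element called the X-box. Rfx1, Rfx2, Rfx3 and Rfx4 are known for driving genes of cilia, and Rfx5 acts in a complex with Rfxap and Rfxank on the promoters of MHC class II genes. Rfx6 acts downstream of Neurog3 in the endocrine cells of the pancreas and the gut, which in the intestine are scattered single cells that secrete hormones or serotonin.

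The arrays compared 4 controls with 4 mutants at E18.5, a late embryonic stage. Controls carried floxed Rfx6 without a named Cre: replicates 1, 3 and 4 were Rfx6 fl/+ and replicate 2 was Rfx6 fl/fl. Mutants were Rfx6 fl/fl Ngn3-cre, in which a Cre driven by Ngn3 (Neurog3) deletes floxed Rfx6 in endocrine progenitors and their descendants. No group was free of floxed alleles, and Cre was confined to the mutants, so an effect of Cre and an effect of the deletion cannot be told apart. RNA came from small intestine rather than sorted cells, so fewer cells of a type and less RNA per cell cannot be told apart either. Which exons were floxed is not given in the sources used here. Nor is it stated whether the 8 numbered samples came from separate litters, so p-values measure the spread between these arrays.

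The titles and source names of all 4 mutants give Rfx6 as the floxed gene, while the descriptions of mutant replicates 2, 3 and 4 name Rfx7, Rfx8 and Rfx9 as the deleted gene. Titles were followed. On mutant replicate 2 the Rfx7 probes stood at -3.45 and -3.25, within the range of the controls for each probe (-3.68 to -3.35 and -3.34 to -2.80). The Rfx6 probe on that array, at -3.37, also lay within its control range (-3.48 to -2.93). These values therefore cannot decide between the labels. The probe named Rfx8 was well above background on 2 of 8 arrays, both mutants, and was not tested. The number of probes named Rfx9 was 0.

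Levels are log2 processed intensity minus the log2 of the array's 75th percentile, so 0 is the brightness at that percentile of the array's spots. That percentile was 788 to 1027 intensity units over the arrays, and 60.9% to 70.7% of spots were well above background. Mutant replicate 1 stood apart, with correlations across probes of 0.973 to 0.978 with the other arrays, against 0.989 to 0.994 among those 7, so the difference of each Rfx probe is given with and without it. Of the labelled tissue's markers, all 10 intestinal epithelium genes looked at, among them Vil1 and Apoa1, passed the filter on dim probes. Of 14 hormone and endocrine genes, 9 were called lower in mutants. That list was made with earlier results of these arrays known, so it is no independent check of the label. Over the whole array 15 of 35472 probes passed a limma adjusted p of 0.05 (0.0423%), 14 lower (0.0395%) and 1 higher (0.00282%). Without mutant replicate 1, 16 passed (0.0451%), 14 lower and 2 higher (0.00564%). Under normexp background correction 24 passed (0.0677%), 18 lower (0.0507%) and 6 higher (0.0169%). When limma weighted each array by its quality (mutant replicate 1 at 0.126), 39 passed (0.11%), 29 lower (0.0818%) and 10 higher (0.0282%). Without control replicate 2, or without mutant replicate 3, 9 passed.

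Each probe is a DNA strand of 60 bases, and where it lies decides which transcripts it can report. Positions follow the array files, which use mm9. The Rfx6 probe (chr10:51450116-51450175) starts at base 3337 of its transcript by the files' own count. Its first 30 bases show, in capitals, a stop codon in each of the 3 reading frames, so the probe as a whole is not coding sequence.
Rfx6: gcacTAGtgtggTGAtttctgttacaTAGt
The 2 Rfx7 probes lie 12 bases apart and share 48 of their 60 bases. Their first 30 bases are shown with the shared letters in capitals.
Rfx7 (chr9:72470685-72470744): attttataaataTGTACATGATGCTGTATT
Rfx7 (chr9:72470697-72470756): TGTACATGATGCTGTATTttccttgaactg
Of the 14 probes, 5 had a stop codon in every frame and 9 had at least 1 frame without one. Among the latter, 3 are shown whole: the most upstream Rfx3 probe and the only 2 whose genomic span exceeds their length. The Rfx4 and Rfxank probes span 458 and 420 genomic bases, so their targets are joined across an intron.
Rfx3 (chr19:27900579-27900638, minus strand): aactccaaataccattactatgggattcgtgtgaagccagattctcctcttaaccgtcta
Rfx4 (chr10:84331133-84331590, plus strand): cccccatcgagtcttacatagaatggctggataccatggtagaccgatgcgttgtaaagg
Rfxank (chr8:72658563-72658982, minus strand): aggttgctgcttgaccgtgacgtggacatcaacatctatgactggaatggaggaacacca
Gene models on mm9 (exons, introns, UTRs) were not used here.

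No member of the family passed the test between mutants and controls. With all 8 arrays 0 of the 13 tested probes were called, against 0.0423% of all probes, and 0 reached an unadjusted p of 0.05 in limma, against 5.05% of all probes. Without mutant replicate 1 these counts were again 0 and 0, against 0.0451% and 6.29%. Control and mutant ranges overlapped at all 13. Over all probes they did not overlap at 4.38% (mutants higher at 2.81%, lower at 1.56%). With only 13 probes, counts of 0 do not set the family apart from these small shares. Of the 13 differences, 6 were below 0 and 7 above it, with a median of 0.044 against 0.024 over all probes. Limma adjusted p was 0.828 to 0.970, and 0.849 to 0.992 without mutant replicate 1.

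**Figure D1:**
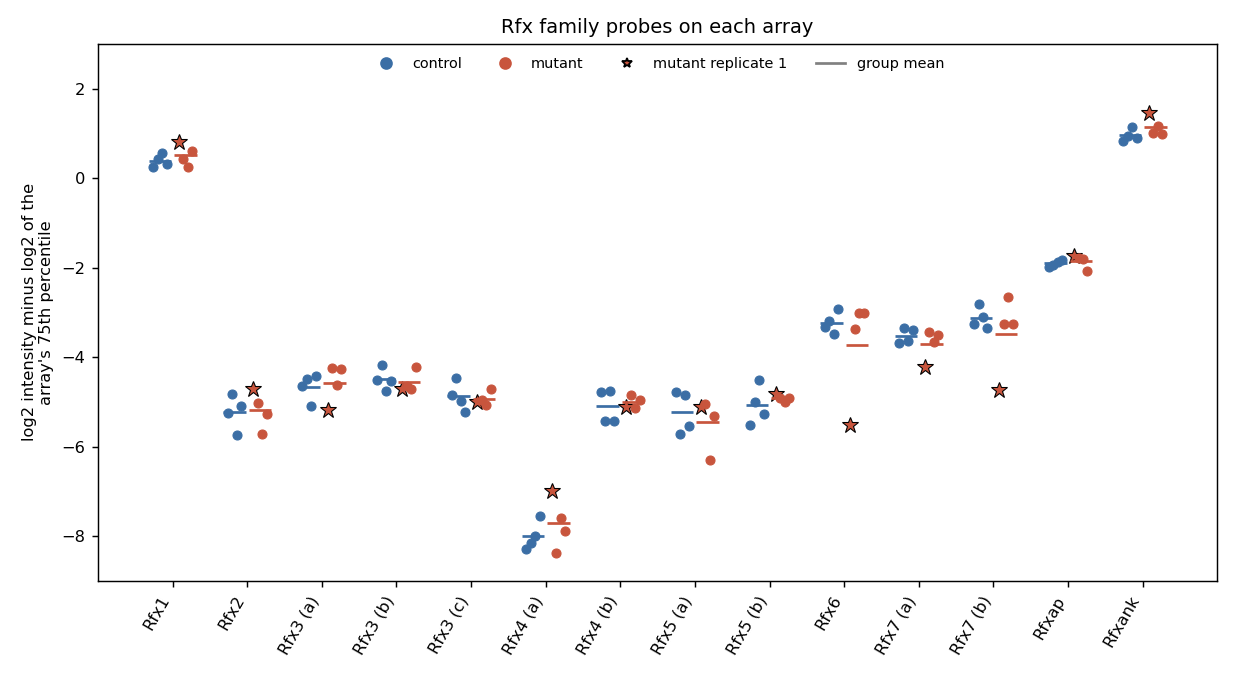
Level of each of the 14 Rfx family probes on each array (y axis: log2 intensity minus log2 of the array's 75th percentile), with controls in blue, mutants in red, group means as bars and mutant replicate 1 as a star. Letters a to c order the probes of a gene by their start in the transcript. The groups overlap at every probe, and the star lies well below the other mutants at Rfx6 (-5.52) and at the second Rfx7 probe (-4.74).

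Rfx6, the gene floxed in this study, was not called. Its probe read -3.32, -3.20, -3.48 and -2.93 in control replicates 1 to 4, and -5.52, -3.37, -3.02 and -3.02 in mutant replicates 1 to 4. Mutant replicate 1 was low and not well above background, and the other 3 mutants lay within the range of the controls. Control replicate 2, with 2 floxed alleles, lay between the controls with 1. Controls averaged -3.23 ± 0.23 and mutants -3.73 ± 1.20 (SD, n = 4 each). The mutants were thus -0.50 from the controls (SE 0.52, limma adjusted p = 0.828), with a 95% interval of -1.68 to 0.69. Without mutant replicate 1 the mutants stood at -3.13 ± 0.20 (SD, n = 3) and the difference was 0.10 (SE 0.15, limma adjusted p = 0.949), with an interval of -0.26 to 0.45, or 0.838-fold to 1.37-fold. On the slide row that held mutant replicate 1 the difference was -1.18, and on the other row 0.19. It was -0.11 with normexp, -0.20 with the authors' deposited table and -0.07 with array weights. Normexp was run with an offset of 50, which by itself shrinks differences at dim probes. Whether the probe lies in the deleted part of Rfx6 is not known from the labels, so it does not check the genotype.

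None of the ciliary factors Rfx1 to Rfx4 was called. Rfx1, a broadly expressed factor (chr8:86620692-86620751), read 0.26, 0.42, 0.57 and 0.32 in controls and 0.82, 0.43, 0.25 and 0.60 in mutants. The highest and the lowest of the 8 values were both mutants. The difference was 0.13 (SE 0.14, limma adjusted p = 0.83), and 0.03 (SE 0.11) without mutant replicate 1. Rfx2, known from spermatids and ciliated cells (chr17:56915749-56915808), read -5.26, -4.82, -5.74 and -5.08 in controls and -4.72, -5.03, -5.71 and -5.27 in mutants. Its probe was well above background on 7 of 8 arrays, and the groups covered almost the same range. The difference was 0.04 (SE 0.25, limma adjusted p = 0.970) and -0.11 (SE 0.24) without mutant replicate 1.

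Rfx3, which is needed for cilia and for islet endocrine cells, had 3 probes. The upstream probe whose sequence is shown above read -4.65, -4.48, -5.10 and -4.42 in controls and -5.17, -4.23, -4.62 and -4.27 in mutants. Mutant replicate 1 was the lowest of the 8, and mutant replicates 2 and 4 the highest. Its difference was 0.09 (SE 0.24), and 0.29 (SE 0.18, limma adjusted p = 0.849) without mutant replicate 1, with an interval of -0.14 to 0.72. The middle probe (chr19:27842877-27842936) read -4.76 to -4.17 in controls and -4.70 to -4.22 in mutants, and the downstream one (chr19:27838940-27838999, well above background on 6 of 8 arrays) -5.22 to -4.46 and -5.07 to -4.71. At both, all 4 mutants lay inside the range of the controls. The differences of the middle and downstream probes were -0.07 (SE 0.16) and -0.05 (SE 0.17), and -0.02 and -0.03 without mutant replicate 1.

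Rfx4, a factor of the developing brain and testis, had 1 tested probe (chr10:84368464-84368523), well above background on 6 of 8 arrays. It read -4.77, -5.42, -4.76 and -5.43 in controls and -5.11, -4.86, -5.13 and -4.95 in mutants. All 4 mutants lay between the 2 pairs of controls, and the difference was 0.08 (SE 0.18, limma adjusted p = 0.913) or 0.11 (SE 0.20) without mutant replicate 1. The splice-spanning Rfx4 probe read -8.28 to -7.54 in controls and -8.37 to -6.99 in mutants, not well above background on any of the 8 arrays, and gives no measured level.

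Rfx5 and its partners form the complex that binds MHC class II promoters. The upstream Rfx5 probe (chr3:94763103-94763162) read -4.78, -5.72, -4.85 and -5.54 in controls and -5.12, -5.05, -6.29 and -5.31 in mutants, and was well above background on only 5 of 8 arrays. Mutant replicate 3 was the lowest of the 8. The difference was -0.22 (SE 0.32, limma adjusted p = 0.861), and -0.33 (SE 0.36) without mutant replicate 1, with the widest interval in that fit, -1.17 to 0.50. The downstream Rfx5 probe (chr3:94765414-94765473) read -5.52, -5.01, -4.51 and -5.26 in controls and -4.81, -4.92, -5.01 and -4.92 in mutants. The mutants fell inside the range of the controls, with a difference of 0.16 (SE 0.20, limma adjusted p = 0.846) or 0.13 (SE 0.22) without mutant replicate 1.

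Rfxap, the subunit that bridges the complex (chr3:54607244-54607303), read -1.98, -1.93, -1.87 and -1.83 in controls and -1.74, -1.77, -1.80 and -2.08 in mutants. It had the smallest spread among controls of the 13 probes (SD 0.068). Its 3 highest arrays and its lowest were mutants. The difference was 0.05 (SE 0.10, limma adjusted p = 0.896), and 0.02 (SE 0.095) without mutant replicate 1. Rfxank, the ankyrin-repeat subunit, read 0.83, 0.93, 1.15 and 0.90 in controls and 1.45, 1.02, 1.17 and 0.99 in mutants. Mutant replicate 1 was the highest of the 8. The difference was 0.20 (SE 0.13, limma adjusted p = 0.828), and 0.10 (SE 0.098, adjusted p = 0.899) without it.

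Rfx7, a large and broadly expressed member, was read by the 2 overlapping probes shown above. The one at 72470685 read -3.68, -3.35, -3.64 and -3.40 in controls and -4.22, -3.45, -3.66 and -3.51 in mutants. The one at 72470697 read -3.27, -2.80, -3.11 and -3.34 in controls and -4.74, -3.25, -2.65 and -3.26 in mutants. At both, mutant replicate 1 was the lowest of the 8 arrays. The differences were -0.19 (SE 0.18, limma adjusted p = 0.828) and -0.35 (SE 0.39, 0.838), and without mutant replicate 1 they were -0.02 (SE 0.11) and 0.07 (SE 0.19).

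The intervals show how large a change in probe reading these arrays leave room for. With all 8 arrays, 11 of 13 intervals lay within a 2-fold change in either direction, the exceptions being Rfx6 and the Rfx7 probe at 72470697. Without mutant replicate 1, 12 of 13 did, the exception being the upstream Rfx5 probe. At 8 of the 9 genes every tested probe then lay within 2-fold. Several of these probes were dim. Rfx2, the tested Rfx4 probe and the upstream Rfx5 probe averaged -5.23, -5.09 and -5.22 in controls. They were well above background on 7, 6 and 5 of 8 arrays. The downstream Rfx5 probe averaged -5.08 in controls, and the Rfx3 probes, in order, -4.66, -4.50 and -4.88. Of these, the downstream Rfx3 probe was well above background on 6 of 8 arrays and the others on all 8. So close to background a fall may not register in full, so a narrow interval there does not exclude a 2-fold fall.

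**Figure D2:**
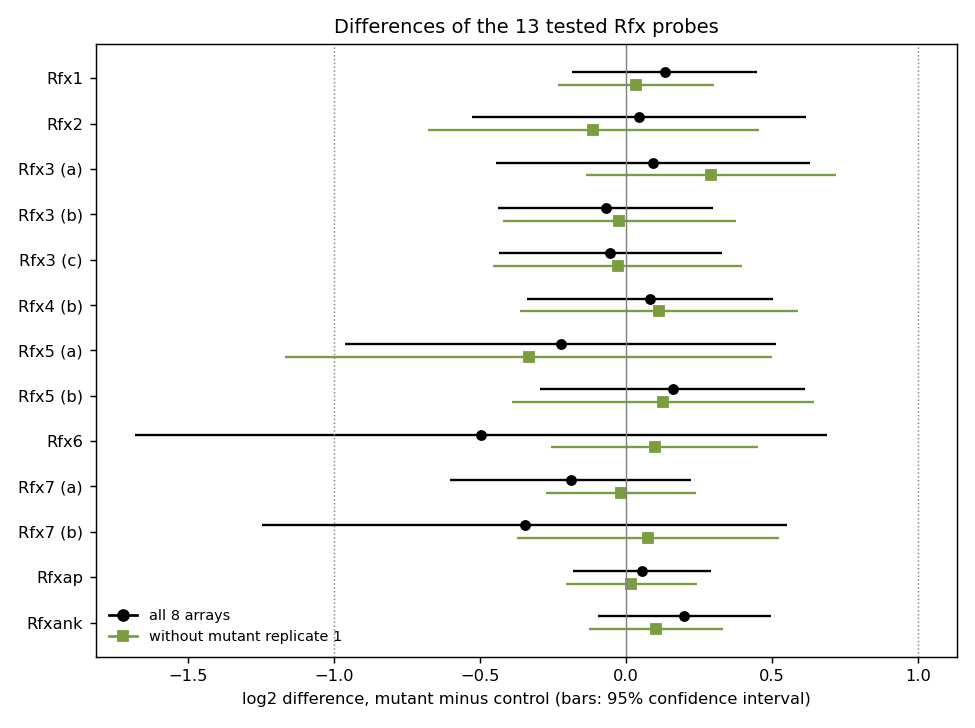
Log2 difference, mutant minus control, of the 13 tested Rfx probes (points) with 95% confidence intervals (bars), for all 8 arrays in black and without mutant replicate 1 in green. Dotted lines mark a 2-fold change. Every interval crosses 0, and the Rfx6 interval narrows from -1.68 to 0.69 to -0.26 to 0.45 when mutant replicate 1 is left out.

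Probes of 1 gene were set against each other by the within-array difference between them, in 5 pairs. No pair differed between the groups (two-sided exact permutation test, p = 0.457 to 0.914, adjusted over the 5 pairs 0.821 to 0.914, smallest possible 0.0286). The largest gap was between the 2 Rfx5 probes, -0.38 for upstream minus downstream, and -0.46 without mutant replicate 1. The upstream Rfx3 probe minus the middle and the downstream one gave 0.16 and 0.14, and 0.31 and 0.32 without that array, which was not tested.

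Mutant replicate 1 was the lowest of the 4 mutants at 5 of 13 probes and the highest at 5, against 28.1% and 51.0% of all tested probes. Relative to the median of the other mutants it was lower by more than 1 on the log2 scale at 2 of 13, against 9.63% of all probes, and higher by more than 1 at 0 of 13, against 0.967%. Those were Rfx6 (-2.50) and the Rfx7 probe at 72470697 (-1.49), followed by the upstream Rfx3 probe (-0.90) and the other Rfx7 probe (-0.72). At the other end stood Rfx2 (0.55), Rfxank (0.43) and Rfx1 (0.38).

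GC content of the probe moved with this deviation over the whole array. Among tested probes with 35% to under 40% GC, 16.9% were lower by more than 1 on mutant replicate 1, against 1.23% at 55% GC or more, and the median deviation was 0.0070 and 0.29. The Rfx6 probe has 35% GC, the Rfx7 probes 36.7% and 38.3%, Rfx1 43.3% and Rfxank 50%. The Rfx5 downstream and Rfxap probes, also at 35%, deviated by 0.11 and 0.066. The part of GC content in the low values was not tested.

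**Figure D3:**
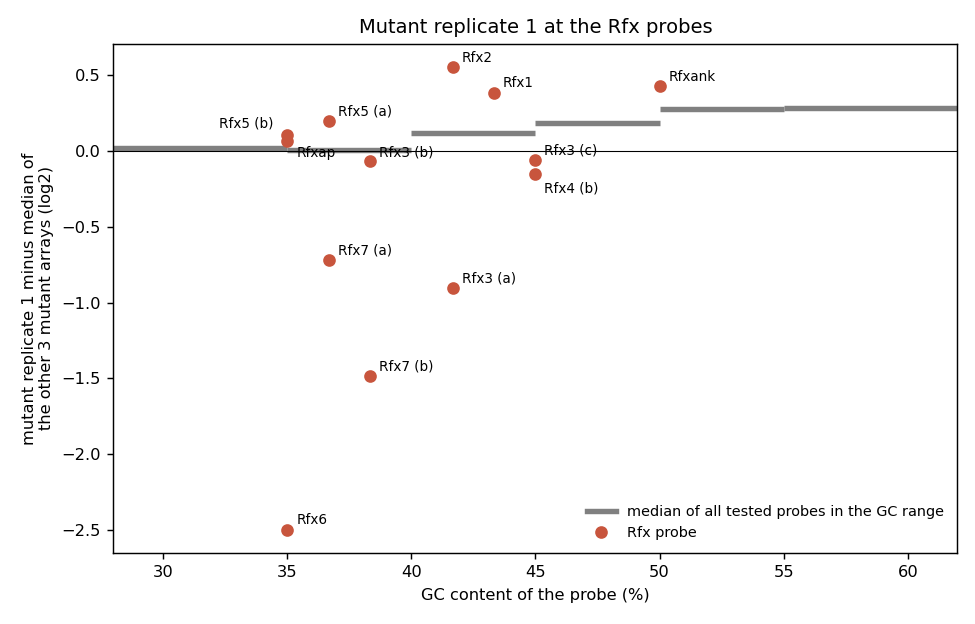
Deviation of mutant replicate 1 from the median of the other 3 mutant arrays (y axis, log2) against the GC content of the probe (x axis, %), for the 13 tested Rfx probes (red points) and as the median of all tested probes in each GC range (grey bars). Rfx6 lies at -2.50 while the downstream Rfx5 probe (b) and the Rfxap probe, of the same GC content, lie at 0.11 and 0.066.

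The probes whose profile was nearest to that of Rfx6 depended on the same array. Likeness was the root mean square difference of centred levels. Over 8 arrays the nearest 5 of 22541 named probes were those of Syncrip, Hapln1, Neto2, Upf2 and Bmt2 (0.120 to 0.132), and all 5 were lowest on mutant replicate 1, by -2.64 to -2.29 against the median of the other mutants. The low Rfx6 value on that array fixes this choice, so the shared drop is a description of how they were chosen. Over the 7 other arrays the nearest were Glipr1, Pdxp, Trerf1, Tmeff1 and Hoxb2 (0.049 to 0.080). The number of probes in both sets was 0, and 1 of the latter 5 was lowest on mutant replicate 1.

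Genes on which Rfx factors act were looked at as lists, with 1 probe per gene, beside 0.0592% of 25330 genes called. For the Rfx5 complex, 8 of 10 MHC class II genes were tested and 0 passed. Their median difference was 0.099, and -0.018 without mutant replicate 1. Nearest to the threshold were Cd74, the invariant chain (0.22, SE 0.14), H2-Eb1 (0.18, SE 0.16) and H2-DMa (0.11, SE 0.14). Of the 5 partners Ciita, Nfya, Nfyb, Nfyc and Creb1, the coactivator and the promoter-bound factors of the same genes, 0 passed (median 0.023, and 0.018 without mutant replicate 1), with Nfyc at 0.12 (SE 0.12), Nfya at 0.070 (SE 0.091) and Creb1 at -0.05 (SE 0.11). The MHC class I list held 9 genes, counting the transactivator Nlrc5. Of these 0 passed and 8 were below 0 (median -0.071, and -0.16 without mutant replicate 1). Nlrc5 was at -0.57 (SE 0.22, limma adjusted p = 0.828), H2-K1 at -0.12 (SE 0.14) and B2m at -0.08 (SE 0.13). MHC genes are also those of blood cells, whose 11 tested markers had 0 calls, a median of 0.054 that turned to -0.072 without mutant replicate 1, and a summed log2 level of 6.36 to 6.60 in controls and 6.29 to 6.65 in mutants. Cd79a (0.29, SE 0.13), Lyz2 (0.38, SE 0.18) and Flt3 (-0.44, SE 0.23) were nearest to the threshold there.

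Cilia genes, the targets of Rfx1 to Rfx4, gave 0 calls among 18 tested of 24, with 9 on each side of 0 and a median of 0.044 (0.039 without mutant replicate 1). Foxj1, the master factor of motile cilia, and Dnah5, Dnah9, Spag6, Ccdc39 and Spef2 were not tested because they were too dim. Ak7 was at 0.50 (SE 0.23; above background in 3 of 4 controls), Dnah11 at 0.41 (SE 0.31; in 2 of 4 controls) and Bbs4 at -0.13 (SE 0.093), each with a limma adjusted p of 0.828.

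Islet genes linked to Rfx6 or Rfx3 gave 0 calls among 9 tested of 10, with 7 below 0 and a median of -0.062 (-0.064 without mutant replicate 1). Ucn3, a peptide of mature beta cells that was well above background on 3 of 4 mutants, was at -1.27 (SE 0.23, limma adjusted p = 0.318) and -1.45 without mutant replicate 1 (adjusted p = 0.118). Its groups did not overlap, which held for 4.38% of all probes. Abcc8, a subunit of the ATP-sensitive potassium channel, was at -0.34 (SE 0.13, adjusted p = 0.828).

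Endocrine genes were the one list with calls. Sst, Nts, Ghrl, Gip, Gcg, Cck, Isl1, Pyy and Sct were called lower with and without mutant replicate 1. The other 5 of the 14 were not called, and 4 of these were above 0. Neurog3, the gene whose promoter drives the Cre, was at 0.76 (SE 0.099, limma adjusted p = 0.0861). Among markers of neighbouring tissue, 8 enteric neuron and glia genes and 10 intestinal epithelium genes gave 0 calls. Their medians were 0.039 and 0.057, and turned to -0.023 and -0.039 without mutant replicate 1. Of the former S100b was at -0.13 (SE 0.14) and Ret at -0.11 (SE 0.13). Of the latter Cdh17 (-0.11, SE 0.11), Vil1 (0.097, SE 0.14) and Apoa1 (0.094, SE 0.16) were nearest to the threshold. All 5 tested acinar pancreas genes were above 0 with 0 calls (median 1.3, and 1.24 without mutant replicate 1), and their summed log2 level was -0.08 to 1.13 in controls and 1.48 to 3.80 in mutants. Nearest to the threshold were Cela2a, Amy2a5 and Cel, all digestive enzymes. Cela2a, dim on all 4 controls, was not called (limma adjusted p = 0.153 on the measured values). With each control set at the lowest level of any probe well above background on that array, it was 3.98-fold higher in mutants. That floor is a choice and gives no strict bound. Amy2a5 cleared background on 3 controls and 4 mutants and was at 6.09 (SE 1.01, limma adjusted p = 0.196) and Cel at 1.02 (SE 0.24, limma adjusted p = 0.585). Groups did not overlap at 3 of the 5, against 4.38% of all probes. The part of pancreatic RNA in the islet gene values was not tested.

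**Figure D4:**
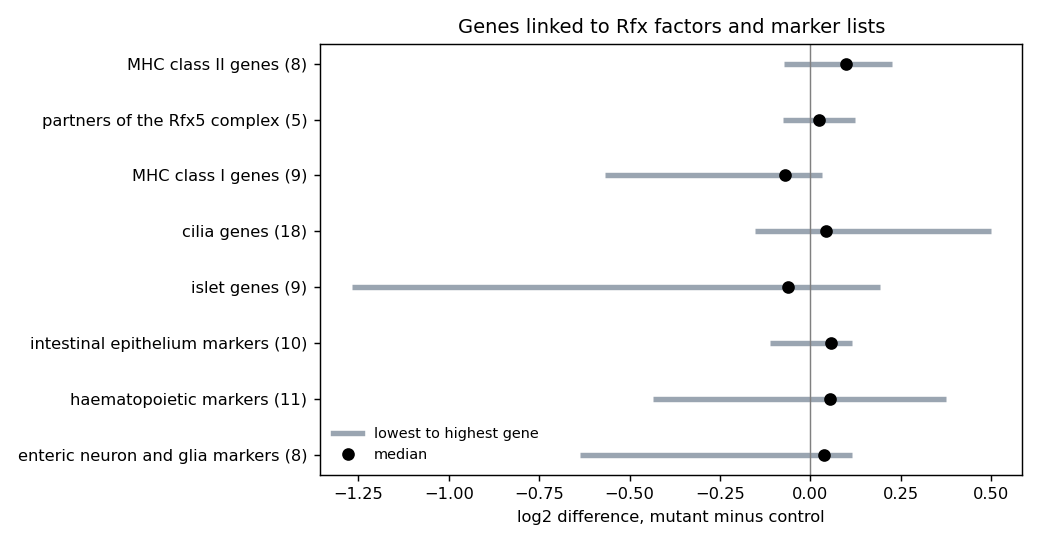
Log2 difference, mutant minus control, for 5 lists of genes linked to Rfx factors and for the intestinal epithelium, haematopoietic and enteric neuron and glia markers, with the number of genes tested in brackets (black point: median, grey bar: lowest to highest gene). The endocrine and acinar pancreas lists are not drawn. The medians drawn lie between -0.071 and 0.099, and the longest bar reaches -1.27, at Ucn3.

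Promoter sequence was available from RefSeq (GRCm38.p6, 250 bases before to 50 after the gene start) for 8 of the 9 genes, with 9 promoters in all. An RFX core motif of the X-box, GTTGCC, or GGCAAC when read on the other strand, occurred in 4 of the 9, against 12.5% of the 32851 promoters in the table. The X-box consensus, searched on both strands and able to contain the core motif, occurred in 0 of 9, against 1.31%. The core motifs are shown in capitals with flanking bases, and binding to them was not measured.
Rfx1 (promoter chr8:84066586-84066885): tgggtagcaacaGTTGCCccggtgagggaa
Rfx2 (promoter chr17:56830959-56831258): agcttggtaaccGTTGCCgggcgcaacgcc
Rfx3 (promoter chr19:28011117-28011416): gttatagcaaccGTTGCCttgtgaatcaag
Rfx6 (promoter chr10:51685268-51685567): ttggtgacttctGGCAACttatttgataat
A match is a description of these letters and not a binding site. The 4 genes differed between mutants and controls by 0.03, -0.11, -0.03 to 0.29 and 0.10 without mutant replicate 1, in the order Rfx1, Rfx2, Rfx3 and Rfx6, none of them called.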

How the data were processed

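Per the labels' protocols, 100 ng of total RNA per sample was amplified and labelled with cyanine 3. The authors scanned the 8 arrays, all on 1 slide, with Feature Extraction 10.10.1.1 on design 028005 (build mm9), per the file headers, and deposited linear intensity values per spot, background-corrected within the array and not normalised between arrays. The authors also deposited a table of intensity values, read as quantile-normalised because its 8 columns shared the same quartiles. Spot flags (control type, outlier, well above background) are other values of the deposited files.

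Each spot's log2 processed intensity was set against its array's 75th percentile. Control and outlier spots were dropped, and spots of a probe were averaged. Each Rfx probe has 1 spot per array. Probes well above background on at least 4 of 8 arrays were tested with limma 3.58.1 in R 4.3.3 (two-sided, no covariates, Benjamini-Hochberg over all 35472 probes, threshold 0.05). The fit was tested on simulated data with known log2 changes of 0.5, 1, 2 and 4, each at 50 probes. It recovered 1, 29, 48 and 49 of them, with 4 false calls. A 2-fold change (1 on the log2 scale) was thus often missed in the simulation. Its noise was drawn independently for each probe and array, whereas mutant replicate 1 deviated at many probes. All changed probes sat in 1 simulated set, against 15 probes called in the data. The recovered counts therefore need not hold for the real arrays. For lists, the tested probe with the highest mean stood for a gene, named by RefSeq accession, by the array's own gene name or by synonym. All Rfx probes were named. From each list every called gene and the 3 with the smallest p of the rest were named (for the endocrine list, the called genes and Neurog3), and for Rfx6 the 5 nearest profiles. Some genes that this rule would name are not reported here. The members and lists were chosen with earlier results of these data known. The motifs searched in promoters were chosen after the results were seen.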

Additional observations from a re-analysis of the deposited data

Results flagged for a closer look

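In 28 groups of 4 arrays (14 probes in each of 2 groups), 2 had a highest or lowest array whose gap to its neighbour passed Dixon's 95% limit. Chance gives about 1 in 20, or 1.4 of 28. Mutant replicate 1 stood at -5.52 for Rfx6, with the other mutants at -3.37 to -3.02. Mutant replicate 4 stood at -4.22 for the middle Rfx3 probe (chr19:27842877-27842936), with the other mutants at -4.70 to -4.64.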

How the results depend on the processing

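Under 18 other settings, 0 of 225 values of Rfx probes passed the threshold, and the lowest limma adjusted p was 0.679. The filter for all 8 arrays left out 5 of the 13 probes, and 1 probe per gene name kept 9 of them. Signs changed at 8 probes, never by more than 0.127 beyond 0, and kept at 5 (Rfx1, the downstream Rfx5 probe, Rfx7 at 72470685, Rfxap and Rfxank). With normexp the middle and downstream Rfx3 probes were at 0.014 and 0.061 and the upstream Rfx5 probe at 0.032. The downstream Rfx3 probe was at 0.0027 with quantile normalisation and 0.026 with the deposited table. With array weights Rfx2 was at -0.12 and Rfx7 at 72470697 at 0.0075. Leaving out 1 array at a time gave ranges of -0.73 to 0.099 for Rfx6, -0.13 to 0.22 for Rfx2, -0.055 to 0.29, -0.19 to 0.039 and -0.17 to 0.086 for the Rfx3 probes in order, -0.029 to 0.19 for Rfx4, -0.39 to 0.059 for the upstream Rfx5 probe and -0.62 to 0.074 for Rfx7 at 72470697. The Rfx6 value turned only without mutant replicate 1. The count over the whole array, 15, was 24 with normexp (75% lower), 39 with array weights (74.4% lower), 15 with the slide row as a block (73.3% lower) and 9 to 20 with 1 array left out (9 without control replicate 2 or mutant replicate 3, 20 without mutant replicate 4). The cause was not tested. With the replicate number as a block it was 7, all among the 15. Same-numbered arrays had correlations of -0.087, 0.090, 0.0031 and 0.0996 between their deviations. Pairs with different numbers ran from -0.21 to 0.26. No pairing by number was thus seen, but these values cannot tell whether samples shared a litter or a step of handling. Most Rfx probes are dim, and 5 of the 13 were not well above background on every array, which limits what changes, falls above all, can be seen.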
